A study of Mus musculus with 12 samples.

Results

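The genes described here are 35 T cell genes, picked by name from the 23329 rows of the count tables. They encode parts of the T cell receptor complex, its signalling proteins, surface molecules, cytokine receptors and transcription factors of T cells. The genes are matched by name alone, but the list was drawn up with earlier results of these data known, and all 35 had a row. Messenger RNA was sequenced from duodenum and from spleen of wild type C57BL/6J mice aged 2 months, a common inbred laboratory strain. They had received either AC H6, an antibody that switches on LTbR, the lymphotoxin beta receptor, or a control antibody of the same isotype, in both cases 100 ul at 1 mg/ml, and tissue was taken 24 hours later. The 4 groups of 3 libraries each were duodenum with AC H6, duodenum with isotype, spleen with AC H6 and spleen with isotype. All 4 held whole tissue, in which T cells are mixed with other cells, and no group lacked T cells or LTbR by genotype. Whether each library is a different mouse, and whether duodenum and spleen are from the same mice, is not stated in the labels. P-values therefore reflect how far these libraries spread, which may be technical in part.

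A T cell reads a peptide held by an MHC molecule through its receptor, whose signal is carried by the CD3 and zeta chains and passed on by the kinases Lck and Zap70 to the adaptor Lat. CD4 and CD8 are co-receptors that bind the MHC molecule and bring Lck to the receptor. In the spleen T cells lie in the T zones of the white pulp and recirculate through blood and lymph, while in the duodenum many lie between the epithelial cells or in the lamina propria and stay there. Many of the T cells between epithelial cells carry a CD8 made of alpha chains only. LTbR is found on stromal, epithelial and myeloid cells and not on T cells.

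Total counts ran from 13874091 to 45847467 per library. Levels are given as CPM, the counts of a gene scaled to library size, after 1 TMM scaling of all 12 libraries. Tissue labels were checked with markers: 12 genes of the intestinal epithelium summed to 24100 to 25600 CPM in AC H6 duodenum and 27800 to 29200 CPM in isotype duodenum, and to between 33.8 and 47.6 CPM in the spleen libraries. Haemoglobin genes held 15.7% to 28.3% of the counts in spleens with AC H6 and 7.59% to 19% in spleens with isotype. Amylase 2 genes of the pancreas held 8.64% of the counts of duodenum AC H6 replicate 3, and Rn45s, a precursor of ribosomal RNA, took up 7.56% in duodenum isotype replicate 1. A list of 10 brain genes, tested because the extraction protocol speaks of brain, summed to between 57.9 and 88.4 CPM in every library.

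The first question was whether T cell genes moved the same way in both tissues. The calls, given as a description, differed between the tissues. In the duodenum with AC H6 10 of the genes rose and 1 fell, while in the spleen with AC H6 none rose and 9 fell. The difference itself was tested in the second comparison below. Changes are given on the log2 scale, AC H6 over isotype, with their standard error (±). A change is called where the p from edgeR's quasi-likelihood test, after Benjamini-Hochberg adjustment over all genes tested, is under 0.05. In the duodenum 31 of the 35 genes had enough counts to be tested and 20 of them were not called. Of all 15667 genes tested there 18.5% rose and 16.1% fell, beside 32.3% and 3.23% of the 31. No reading is drawn from these shares, since some of the 31 passed the filter on low counts only through the AC H6 libraries. In the spleen all 35 were tested and 26 were not called, and of all 15270 genes tested 1.92% fell and 2.06% rose, against 25.7% of the T cell genes that fell. At an unadjusted p under 0.05, 13 were higher and 1 lower in the duodenum (23.7% and 21.7% of all genes), DESeq2 called 7 and 1 (16.1% and 16.5%) and limma-voom 10 and 1 (18.6% and 16.6%). These are whole tissues, so fewer T cells and less RNA per T cell cannot be told apart.

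Of the 31 genes tested in the duodenum 5 (Ubash3a, which is among the 10 that rose, and Cd5, Cd2, Cd8b1 and Icos) passed the filter only through their AC H6 libraries. Counts over the 31 are therefore given as a description: 27 of their fold changes were above 0 and 4 below (51.2% and 48.8% of all genes), and in 14 all AC H6 libraries lay above all isotype libraries, with 1 the other way round (23.7% and 26.3% of all genes). Without any filter all 35 genes entered the duodenum test, 10 rose, 1 fell and 24 were not called, beside 14.9% higher and 12.1% lower of all 19614 genes. In that fit 30 of the 35 fold changes were above 0 and 5 below, beside 51.7% and 48.3% of all genes, and the median was 0.34, beside 0.01 over all genes. The 4 genes that missed the filter in the duodenum were Trat1, Ctla4, Cd40lg and Lef1, with 2 to 14 counts in each duodenum library.

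In the spleen 34 of the 35 fold changes were below 0 and 1 above, against 50.2% and 49.8% of all genes tested, and the median was -0.34, against 0.00 over all genes. In 23 of the 35 genes all 3 AC H6 spleens lay below all 3 isotype spleens, which held for 17.2% of all genes tested (and the reverse for 0 of the 35 and 15.5% of all). At an unadjusted p under 0.05, 26 were lower and 0 higher, beside 13.3% lower and 14.6% higher of all genes. DESeq2 called 18 of them lower and limma-voom 9, and neither called one of them higher. Of all genes DESeq2 called 4.01% lower and 6.05% higher, and limma-voom 1.95% and 1.89%. The count of 9 was kept without AC H6 replicate 2 and was lost, or all but lost, without any other spleen library: it was 0 without isotype replicate 1, 1 without isotype replicate 2, 0 without isotype replicate 3, 0 without AC H6 replicate 1, 14 without AC H6 replicate 2 and 0 without AC H6 replicate 3. The counts at an unadjusted p under 0.05 in those fits were 19 to 26 lower and 0 higher, and the median change lay between -0.38 and -0.30 in them.

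**Figure D1:**
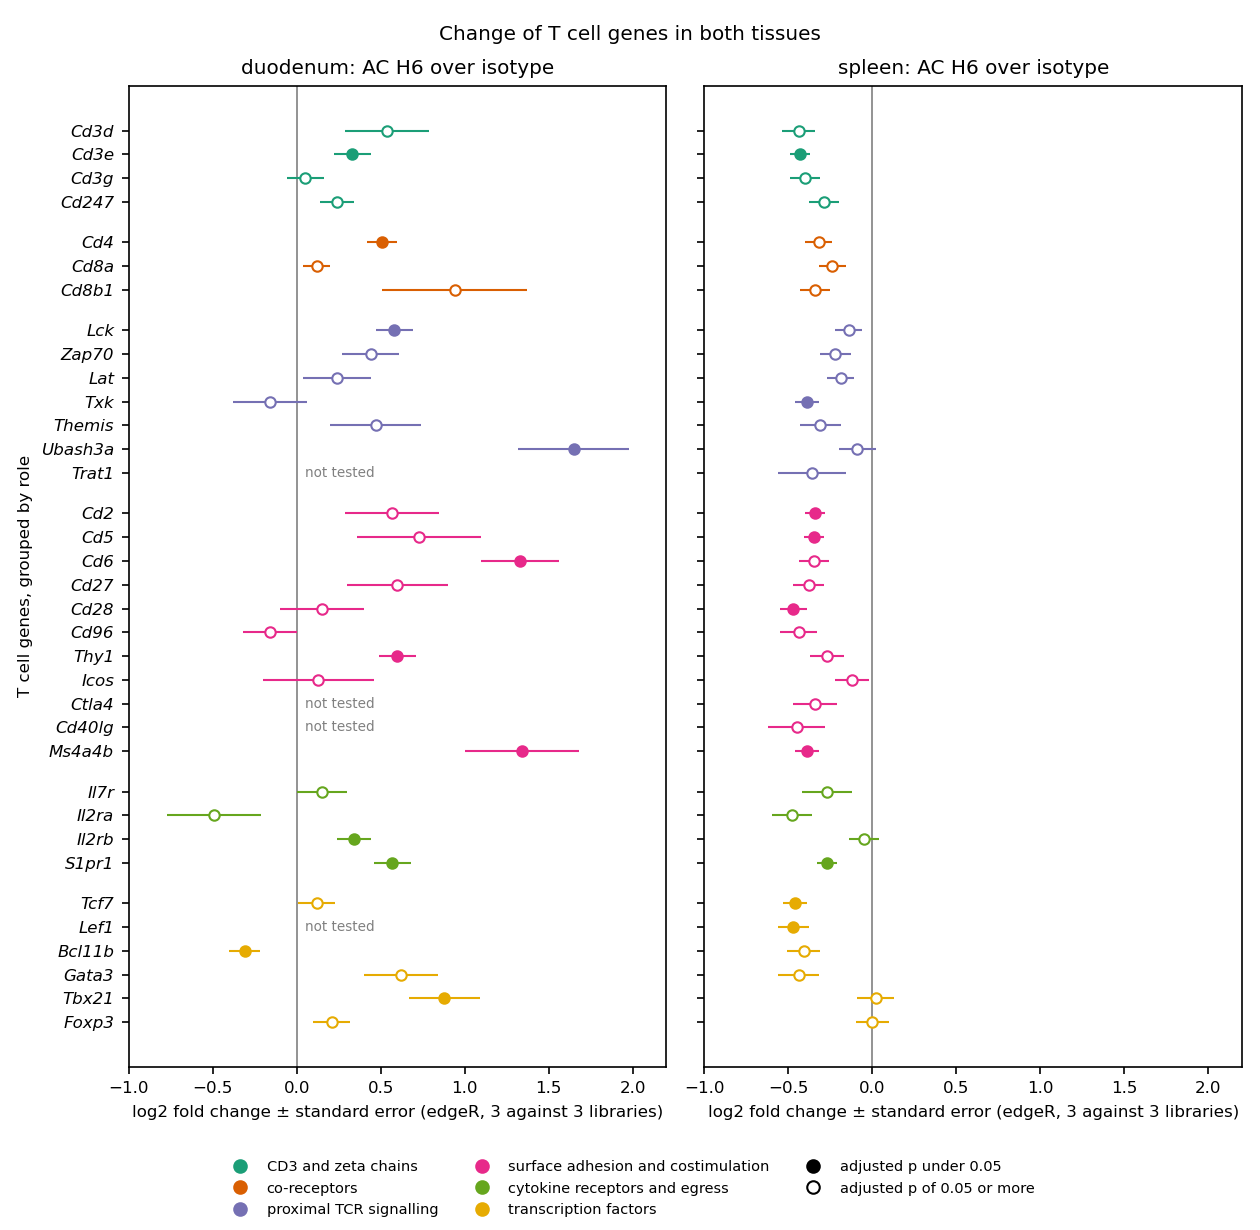
Each point is the log2 fold change of AC H6 over isotype with its standard error for 1 gene (left, duodenum; right, spleen; 3 against 3 libraries; colours mark the role of the gene; filled points have an adjusted p under 0.05). In the spleen panel 34 of 35 changes are below 0, with Foxp3 almost on the line at 0.00, and in the duodenum panel 27 of 31 lie right of it.

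Gene by gene, 26 of the 31 genes tested in both tissues had a fold change above 0 in the duodenum and below 0 in the spleen, a pattern seen in 24.1% of the 14366 genes tested in both. Txk, Cd96, Il2ra and Bcl11b were below 0 in both tissues, and Tbx21 was above 0 in both, so 5 of 31 had the same sign, against 52.6% of all genes. The genes called higher in the duodenum and lower in the spleen were Cd3e, Ms4a4b and S1pr1, 3 of 31, against 0.348% of all genes tested in both. In 8 genes (Cd3e, Cd247, Cd4, Cd2, Cd6, Ms4a4b, S1pr1 and Gata3) the groups did not overlap in either tissue and lay in opposite order, which held for 3.5% of all genes. The 26 include Ubash3a, Cd5, Cd2, Cd8b1 and Icos, and the 8 include Cd2. These 5 genes passed the duodenum filter only through their AC H6 libraries, so the counts over the 31 are given as a description.

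**Figure D2:**
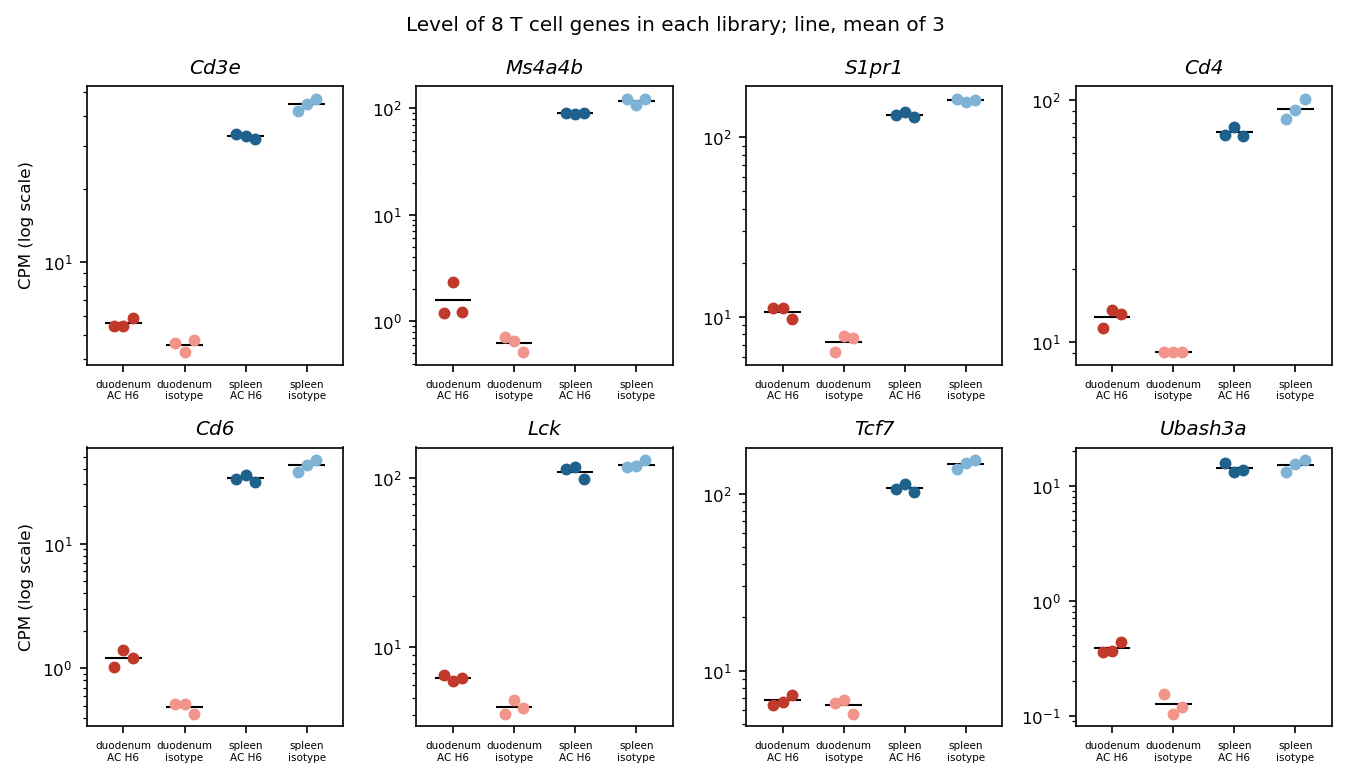
CPM of 8 T cell genes in each of the 12 libraries on a log axis (points, libraries; line, mean of the 3 libraries of a group; each tissue has AC H6 left of isotype). For Cd3e, Ms4a4b and S1pr1 the AC H6 points lie above the isotype points in the duodenum and below them in the spleen.

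Ubash3a, which had the largest fold change in the duodenum, passed the filter there only through its AC H6 libraries. The 250 bases before the RefSeq start are shown for it and for 2 of the genes called in opposite directions, Cd3e and Ms4a4b, as a description. They are from RefSeq on GRCm38.p6, in the direction of the gene, 5′ to 3′. Capitals mark AGGAAG or its reverse complement, the core recognised by factors of the ETS family, which are active in T cells.
Cd3e upstream window, chr9:45009612-45009861, minus strand: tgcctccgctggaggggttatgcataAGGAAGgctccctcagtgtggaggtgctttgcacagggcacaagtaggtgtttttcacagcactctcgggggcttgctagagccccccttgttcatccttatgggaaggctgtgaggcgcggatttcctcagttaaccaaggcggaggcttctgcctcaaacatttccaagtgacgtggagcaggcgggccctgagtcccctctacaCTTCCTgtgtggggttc
Ms4a4b upstream window, chr19:11443308-11443557, plus strand: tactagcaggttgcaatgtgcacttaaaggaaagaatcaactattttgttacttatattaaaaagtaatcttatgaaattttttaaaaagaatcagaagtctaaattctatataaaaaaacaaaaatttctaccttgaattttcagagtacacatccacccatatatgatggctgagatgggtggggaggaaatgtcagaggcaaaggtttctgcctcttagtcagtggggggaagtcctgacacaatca
Ubash3a upstream window, chr17:31207816-31208065, plus strand: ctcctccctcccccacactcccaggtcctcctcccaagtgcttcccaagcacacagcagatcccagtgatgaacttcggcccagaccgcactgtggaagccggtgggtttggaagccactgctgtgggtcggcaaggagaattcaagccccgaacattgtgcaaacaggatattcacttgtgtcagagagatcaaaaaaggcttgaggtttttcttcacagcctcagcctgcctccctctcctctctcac
The window of Cd3e held AGGAAG 2 times, starting 224 bases before the start on the strand of the gene and 17 bases before it on the other strand, and the other two windows held none. RefSeq starts lie inside the genes as GENCODE gives them, by 16 bases for Cd3e, 5 for Ms4a4b and 193 for Ubash3a, so these windows are partly within the GENCODE gene, most of the second AGGAAG of Cd3e included. RefSeq windows were matched by symbol for 25 of the 35 genes, 35 windows in all. The motifs, chosen after values had been seen, were searched on both strands with no overlap removed: AGGAAG, the RUNX core TGTGGT, the TCF/LEF core CTTTGA and the GATA core AGATAA. The ETS core stood in 45.7% of these 35 windows and in 29.5% of all 32851 windows. Of the windows of T cell genes and of all windows, in this order, TGTGGT stood in 14.3% and 14%, CTTTGA in 17.1% and 13.8%, and AGATAA in 8.57% and 9.99%. A match describes the letters and does not show that a factor binds there.

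Among the 4 receptor chains, 1 rose and 3 were not called in the duodenum, and in the spleen 1 fell and 3 were not called. In all 4 the AC H6 spleens lay below the isotype spleens, as in 17.2% of all genes tested there. For this and the role groups below, the shares of all genes called were 18.5% higher and 16.1% lower in the duodenum. In the spleen these shares were 2.06% and 1.92%. Cd3e encodes the CD3 epsilon chain, without which the receptor does not reach the surface (chromosome 9, 44998740 to 45009627, minus strand, GRCm38). In the duodenum Cd3e had 5.47, 5.44 and 5.89 CPM in the AC H6 libraries, against 4.62, 4.25 and 4.76 CPM in the isotype libraries. In the spleen Cd3e had 33.7, 32.9 and 32.2 CPM in the AC H6 libraries, against 41.9, 44.6 and 47 CPM in the isotype libraries. It was thus higher in every AC H6 duodenum and lower in every AC H6 spleen. The log2 changes of Cd3e were 0.33 ± 0.11 in the duodenum (adjusted p = 0.0473) and -0.43 ± 0.06 in the spleen (adjusted p = 0.0209). The duodenum call of Cd3e was lost without any 1 of the 6 duodenum libraries (adjusted p of 0.0707 to 0.134), and DESeq2 gave an adjusted p of 0.144. Its spleen call was lost without any spleen library other than AC H6 replicate 2 (adjusted p of up to 0.104).

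Cd3d, the CD3 delta chain, had 2.66, 3.04 and 2.38 CPM in the AC H6 libraries, against 1.13, 1.9 and 2.48 CPM in the isotype libraries of the duodenum. In the spleen Cd3d had 35.5, 36.2 and 29.9 CPM in the AC H6 libraries, against 41.5, 45.7 and 50.9 CPM in the isotype libraries. The duodenum groups overlapped and the spleen groups did not, with log2 changes of 0.54 ± 0.25 (adjusted p = 0.126) and -0.44 ± 0.10 (adjusted p = 0.0576). For Cd3g, the CD3 gamma chain, the duodenum gave 7.38, 8.37 and 7.33 CPM in the AC H6 libraries, against 7.18, 7.05 and 8.29 CPM in the isotype libraries. The spleen gave 38.4, 37.1 and 34.6 CPM in the AC H6 libraries, against 43.5, 47.7 and 54.5 CPM in the isotype libraries for Cd3g. Here too the groups overlapped in the duodenum alone, and the log2 changes were 0.05 ± 0.11 and -0.40 ± 0.09 (adjusted p = 0.733 and 0.0536). Cd247, the zeta chain that carries most of the signalling motifs, had 9.23, 9.79 and 10.6 CPM in the AC H6 libraries, against 8.21, 9.16 and 8.1 CPM in the isotype libraries of the duodenum. In the spleen Cd247 had 48.6, 53.7 and 46.2 CPM in the AC H6 libraries, against 55.1, 59.7 and 66.6 CPM in the isotype libraries. Its groups overlapped in neither tissue, but the changes of 0.24 ± 0.10 in the duodenum and -0.29 ± 0.09 in the spleen were not called (adjusted p = 0.0865 and 0.103). Exons of Cd247 share 3007 bases (56.4%) with Pou2f1 on the opposite strand, and the library kit does not mark strand, so reads of both genes cannot be told apart there. Pou2f1 itself had log2 changes of 0.00 in the duodenum and -0.29 in the spleen, neither called.

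Of the 3 co-receptor chains, Cd4 rose in the duodenum, and none was called in the spleen, where the AC H6 libraries of all 3 lay below the isotype libraries. Cd4, the co-receptor of helper and regulatory T cells (chromosome 6, 124864692 to 124888221, minus strand), had 11.4, 13.5 and 13 CPM in the AC H6 libraries, against 9.03, 9.06 and 9.04 CPM in the isotype libraries of the duodenum. In the spleen Cd4 had 71.3, 77.4 and 71 CPM in the AC H6 libraries, against 83.4, 91 and 101 CPM in the isotype libraries. The order was opposite in the 2 tissues and without overlap. Cd4 rose by 0.51 ± 0.09 in the duodenum (adjusted p = 0.00401), a call kept without each library in turn (adjusted p of up to 0.0181). Its change of -0.32 ± 0.08 in the spleen was not called (adjusted p = 0.0718), though DESeq2 called it (adjusted p = 0.0128). Some macrophages and dendritic cells also carry Cd4.

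Cd8a encodes the CD8 alpha chain (chromosome 6, 71373427 to 71379173, plus strand), and in the duodenum it had 15.1, 13.4 and 16.1 CPM in the AC H6 libraries, against 13.9, 13.5 and 14.3 CPM in the isotype libraries. In the spleen Cd8a had 74.7, 76.4 and 67.8 CPM in the AC H6 libraries, against 83.2, 82.2 and 93.2 CPM in the isotype libraries. The duodenum libraries overlapped, with a log2 change of 0.12 ± 0.08 (adjusted p = 0.287), and the spleen change was -0.24 ± 0.08 (adjusted p = 0.115). Cd8b1, the CD8 beta chain of conventional killer T cells, had 0.747, 1.09 and 0.405 CPM in the AC H6 libraries, against 0.462, 0.242 and 0.472 CPM in the isotype libraries of the duodenum, from 7 to 30 counts a library. In the spleen Cd8b1 had 40.6, 34.5 and 32.6 CPM in the AC H6 libraries, against 43.5, 45.5 and 47.7 CPM in the isotype libraries. AC H6 replicate 3 was below isotype replicates 1 and 3 in the duodenum, while the spleens did not overlap, and its changes of 0.94 ± 0.43 and -0.34 ± 0.09 were not called (adjusted p = 0.124 and 0.0767).

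Of 7 genes that act just below the receptor, Lck and Ubash3a rose and 4 were not called of 6 tested in the duodenum, and in the spleen Txk fell and 6 were not called. Lck, the kinase that starts the signal (chromosome 4, 129548344 to 129573641, minus strand), had 6.87, 6.34 and 6.57 CPM in the AC H6 libraries, against 4.05, 4.91 and 4.4 CPM in the isotype libraries of the duodenum. In the spleen Lck had 112, 115 and 99 CPM in the AC H6 libraries, against 115, 117 and 127 CPM in the isotype libraries. Every AC H6 duodenum was above every isotype duodenum, while the spleens overlapped. The change of Lck was 0.58 ± 0.11 in the duodenum (adjusted p = 0.00501, and up to 0.0199 without 1 library) and -0.14 ± 0.08 in the spleen (adjusted p = 0.284). Ubash3a, which restrains the signal of the receptor (chromosome 17, 31207873 to 31246892, plus strand), had 0.359, 0.362 and 0.433 CPM in the AC H6 libraries, against 0.154, 0.104 and 0.118 CPM in the isotype libraries of the duodenum. Those values rest on 10 to 16 counts in each AC H6 library and 3 in each isotype library. In the spleen Ubash3a had 15.6, 13.2 and 13.6 CPM in the AC H6 libraries, against 13.1, 15.4 and 16.6 CPM in the isotype libraries. The spleens overlapped. Ubash3a rose by 1.65 ± 0.33 in the duodenum (adjusted p = 0.00594, up to 0.029 in the 5 fits without 1 library that tested it, and 0.0817 by DESeq2), against a spleen change of -0.09 ± 0.11 (adjusted p = 0.607).

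Txk, a kinase of the Tec family, had 1.4, 1.99 and 2.14 CPM in the AC H6 libraries, against 1.9, 1.83 and 2.56 CPM in the isotype libraries of the duodenum. In the spleen Txk had 14.9, 15.9 and 14.8 CPM in the AC H6 libraries, against 19.7, 19.2 and 21 CPM in the isotype libraries. The groups of Txk overlapped in the duodenum and not in the spleen. Txk fell in the spleen, by a log2 change of -0.39 ± 0.07 (adjusted p = 0.0317), and its change was -0.16 ± 0.22 in the duodenum (adjusted p = 0.597). That spleen call was lost without any spleen library other than AC H6 replicate 2 (adjusted p of up to 0.128). Zap70, the kinase that docks on the zeta chain, had 3.05, 3.62 and 3.49 CPM in the AC H6 libraries, against 2.41, 2.11 and 3.07 CPM in the isotype libraries of the duodenum. In the spleen Zap70 had 24.6, 25.9 and 24.1 CPM in the AC H6 libraries, against 25, 31.5 and 30.6 CPM in the isotype libraries. In the duodenum isotype replicate 3 lay among the AC H6 values, and in the spleen isotype replicate 1 did, and the changes of 0.44 ± 0.17 and -0.22 ± 0.09 were not called (adjusted p = 0.0792 and 0.163). The adaptor Lat had log2 changes of 0.24 ± 0.20 in the duodenum and -0.19 ± 0.08 in the spleen, and Themis, which sets the signal during thymic selection, of 0.47 ± 0.27 and -0.31 ± 0.12, all without a call. Trat1, an adaptor that holds the receptor at the surface, was tested in the spleen alone, at -0.36 ± 0.20.

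Of 11 surface molecules for adhesion and costimulation, 3 rose (Cd6, Thy1 and Ms4a4b) and 6 were not called of 9 tested in the duodenum, and in the spleen 4 fell (Cd28, Ms4a4b, Cd5 and Cd2) and 7 were not called. Cd6 is a scavenger receptor family protein at the contact of T cell and antigen-presenting cell (chromosome 19, 10789341 to 10830058, minus strand). In the duodenum Cd6 had 1.02, 1.41 and 1.22 CPM in the AC H6 libraries, against 0.513, 0.519 and 0.432 CPM in the isotype libraries. In the spleen Cd6 had 33.2, 35.7 and 31.2 CPM in the AC H6 libraries, against 37.9, 43.2 and 46.8 CPM in the isotype libraries. The groups of Cd6 did not overlap in either tissue and lay in opposite order. It rose by 1.33 ± 0.23 in the duodenum (adjusted p = 0.00349, the smallest of the 31 genes, and up to 0.0188 without 1 library), and its spleen change of -0.35 ± 0.09 was not called (adjusted p = 0.0703). Thy1, a small anchored surface protein of mouse T cells, also found on fibroblasts and neurons, had 6.45, 6.45 and 6.43 CPM in the AC H6 libraries, against 3.85, 4.36 and 4.72 CPM in the isotype libraries of the duodenum. In the spleen Thy1 had 69.3, 66.2 and 61.6 CPM in the AC H6 libraries, against 68.8, 79.2 and 89.6 CPM in the isotype libraries. The 3 AC H6 duodenum libraries of Thy1 were nearly equal and above all isotype libraries, and the spleens overlapped. Its change was 0.60 ± 0.11 in the duodenum (adjusted p = 0.00463) and -0.27 ± 0.10 in the spleen (adjusted p = 0.15).

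Ms4a4b is a protein with 4 membrane spans that is found on T cells (chromosome 19, 11443553 to 11467055, plus strand). In the duodenum Ms4a4b had 1.2, 2.36 and 1.22 CPM in the AC H6 libraries, against 0.718, 0.657 and 0.511 CPM in the isotype libraries. In the spleen Ms4a4b had 90.6, 89 and 90.4 CPM in the AC H6 libraries, against 123, 108 and 122 CPM in the isotype libraries. Replicate 2 was the highest of the AC H6 duodenum libraries, and both tissues separated, in opposite order. Ms4a4b rose by 1.34 ± 0.34 in the duodenum (adjusted p = 0.0166) and fell in the spleen, with a change of -0.39 ± 0.07 (adjusted p = 0.0317). The duodenum call was lost without isotype replicate 3 (adjusted p = 0.0611), and the spleen call without isotype replicates 1 or 3 or AC H6 replicates 1 or 3 (adjusted p of up to 0.128). Its paralog Ms4a4c, which may share reads with it and which was looked up after values were seen, had log2 changes of 1.98 in the duodenum and -0.01 in the spleen.

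Cd28, the receptor of the main second signal of T cell activation, had 1.34, 1.7 and 2.51 CPM in the AC H6 libraries, against 1.59, 1.97 and 1.53 CPM in the isotype libraries of the duodenum. In the spleen Cd28 had 24.5, 27.5 and 25 CPM in the AC H6 libraries, against 34.3, 33.7 and 38.8 CPM in the isotype libraries. The duodenum libraries overlapped, and the spleens did not. Cd28 had changes of 0.15 ± 0.25 in the duodenum (adjusted p = 0.674) and -0.47 ± 0.08 in the spleen (adjusted p = 0.0287). Cd5, which damps the signal of the receptor, had 0.687, 0.689 and 0.433 CPM in the AC H6 libraries, against 0.256, 0.553 and 0.236 CPM in the isotype libraries of the duodenum. In the spleen Cd5 had 29.7, 33.6 and 30.2 CPM in the AC H6 libraries, against 38.3, 40.5 and 40.6 CPM in the isotype libraries. Isotype replicate 2 kept the duodenum groups of Cd5 from separating, and the spleens separated, with changes of 0.73 ± 0.37 and -0.35 ± 0.06 (adjusted p = 0.162 and 0.0375). Cd2, an adhesion receptor, had 0.598, 0.761 and 0.46 CPM in the AC H6 libraries, against 0.41, 0.45 and 0.354 CPM in the isotype libraries of the duodenum, 8 to 21 counts a library. In the spleen Cd2 had 61.5, 66 and 59.1 CPM in the AC H6 libraries, against 78.5, 76.6 and 81.9 CPM in the isotype libraries. Both tissues separated, the duodenum narrowly, with changes of 0.57 ± 0.28 (adjusted p = 0.15) and -0.34 ± 0.06 (adjusted p = 0.0387). The spleen calls of Cd28, Cd5 and Cd2 were each lost without any spleen library other than AC H6 replicate 2 (adjusted p of up to 0.138).

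Cd27, a costimulatory receptor, had 1.22, 0.87 and 0.676 CPM in the AC H6 libraries, against 0.821, 0.519 and 0.55 CPM in the isotype libraries of the duodenum. In the spleen Cd27 had 26.5, 28.5 and 24.2 CPM in the AC H6 libraries, against 30.4, 35.8 and 36.9 CPM in the isotype libraries. The spleens separated and the duodenum libraries did not, with changes of 0.60 ± 0.30 and -0.38 ± 0.09, neither called (adjusted p = 0.158 and 0.0654). Cd96, a receptor for nectins, had log2 changes of -0.16 ± 0.16 in the duodenum and -0.44 ± 0.11 in the spleen, and the costimulator Icos of 0.13 ± 0.33 and -0.12 ± 0.10, with no call. Ctla4, the brake that competes with Cd28, and Cd40lg, the ligand through which helper T cells act on B cells, were tested in the spleen alone. Their log2 changes there were -0.34 ± 0.13 and -0.45 ± 0.17, again with no call.

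Among 4 receptors for cytokines and for exit from tissue, S1pr1 and Il2rb rose in the duodenum and 2 were not called. In the spleen S1pr1 fell and 3 were not called. S1pr1, the sphingosine 1-phosphate receptor that T cells use to leave lymphoid organs and that is also strong in endothelium (chromosome 3, 115710433 to 115715072, minus strand), had 11.2, 11.2 and 9.68 CPM in the AC H6 libraries, against 6.36, 7.85 and 7.67 CPM in the isotype libraries of the duodenum. In the spleen S1pr1 had 133, 139 and 129 CPM in the AC H6 libraries, against 164, 158 and 161 CPM in the isotype libraries. It was higher in every AC H6 duodenum and lower in every AC H6 spleen. S1pr1 rose by 0.57 ± 0.11 in the duodenum (adjusted p = 0.0057, and up to 0.0253 without 1 library). Its spleen change was -0.27 ± 0.06 (adjusted p = 0.0469), a call lost without any spleen library other than AC H6 replicate 2 (adjusted p of up to 0.166) and without the filter (0.0629). Endothelium and stroma markers, a list of 12, summed to 1720 to 1910 CPM in AC H6 duodenum and to 1270 to 1420 CPM in isotype duodenum, where 9 of the 12 rose (18.5% of all genes). Their part in the change of S1pr1 was not tested.

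Il2rb is the beta chain of the receptors for interleukins 2 and 15, and in the duodenum it had 11.7, 14.4 and 12.9 CPM in the AC H6 libraries, against 9.59, 10.5 and 11.1 CPM in the isotype libraries. In the spleen Il2rb had 77.7, 83.9 and 76.3 CPM in the AC H6 libraries, against 74.6, 80 and 92.8 CPM in the isotype libraries. The duodenum groups separated and the spleens overlapped. Its changes were 0.34 ± 0.10 in the duodenum (adjusted p = 0.0344) and -0.05 ± 0.09 in the spleen (adjusted p = 0.726). The duodenum call of Il2rb was lost without isotype replicate 1 or 2 or AC H6 replicate 2 or 3 (adjusted p of up to 0.114). Il2ra, the alpha chain of regulatory and activated T cells, had changes of -0.49 ± 0.28 and -0.48 ± 0.12, and Il7r, the interleukin 7 receptor that keeps resting T cells alive, of 0.15 ± 0.15 and -0.27 ± 0.15, in duodenum and spleen, none called.

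Of 6 transcription factors, Tbx21 rose, Bcl11b fell and 3 were not called in the duodenum, while in the spleen Tcf7 and Lef1 fell and 4 were not called. Tcf7, a factor of naive and memory T cells (chromosome 11, 52252371 to 52283014, minus strand), had 6.39, 6.67 and 7.3 CPM in the AC H6 libraries, against 6.57, 6.78 and 5.7 CPM in the isotype libraries of the duodenum. In the spleen Tcf7 had 107, 113 and 102 CPM in the AC H6 libraries, against 139, 149 and 155 CPM in the isotype libraries. The duodenum libraries overlapped, and all AC H6 spleens lay below the isotype spleens. Its changes were 0.12 ± 0.11 (adjusted p = 0.426) in the duodenum and -0.46 ± 0.07 (adjusted p = 0.0233) in the spleen. Lef1, the partner of Tcf7, had 0.329, 0.326 and 0.297 CPM in the AC H6 libraries, against 0.359, 0.277 and 0.236 CPM in the isotype libraries of the duodenum, 6 to 11 counts a library and too few to test. In the spleen Lef1 had 28.2, 26.8 and 25.7 CPM in the AC H6 libraries, against 33.2, 37.1 and 41.6 CPM in the isotype libraries. The spleens of Lef1 did not overlap, and it fell, with a change of -0.47 ± 0.09 (adjusted p = 0.0388). Both spleen calls were lost without any spleen library other than AC H6 replicate 2, at an adjusted p of up to 0.104 for Tcf7 and 0.148 for Lef1.

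Tbx21, the factor T-bet of type 1 helper, killer and natural killer cells (chromosome 11, 97098071 to 97115331, minus strand), had 1.52, 1.12 and 1.32 CPM in the AC H6 libraries, against 0.769, 0.761 and 0.668 CPM in the isotype libraries of the duodenum. In the spleen Tbx21 had 8.79, 11 and 9.5 CPM in the AC H6 libraries, against 9.26, 10.5 and 9.08 CPM in the isotype libraries. It was higher in every AC H6 duodenum, and the spleens overlapped. Tbx21 rose by 0.88 ± 0.21 in the duodenum (adjusted p = 0.0123, 0.0503 without isotype replicate 3 and 0.052 by DESeq2), against 0.02 ± 0.11 in the spleen (adjusted p = 0.921). Bcl11b, which fixes T cell identity and is also made in other tissues (chromosome 12, 107910403 to 108003602, minus strand), had 18.8, 17.5 and 20.3 CPM in the AC H6 libraries, against 26, 21.7 and 23.8 CPM in the isotype libraries of the duodenum. In the spleen Bcl11b had 28.8, 34.6 and 28.3 CPM in the AC H6 libraries, against 38.8, 39.1 and 44.7 CPM in the isotype libraries. The AC H6 libraries were the lower ones in both tissues. Bcl11b fell in the duodenum, with a change of -0.31 ± 0.09 (adjusted p = 0.0238), a call lost without isotype replicate 1 or 3 or AC H6 replicate 1 or 2 (adjusted p of up to 0.0837). The spleen change of -0.41 ± 0.10 was not called (adjusted p = 0.0588).

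Gata3, the factor of type 2 helper cells, had 1.4, 1.56 and 1.38 CPM in the AC H6 libraries, against 1.23, 0.968 and 0.708 CPM in the isotype libraries of the duodenum. In the spleen Gata3 had 4.87, 5.98 and 4.87 CPM in the AC H6 libraries, against 6.64, 7.09 and 7.75 CPM in the isotype libraries. Both tissues separated in opposite order, with changes of 0.62 ± 0.22 and -0.44 ± 0.12 that were not called (adjusted p = 0.0629 and 0.0782). Foxp3, the factor of regulatory T cells, had changes of 0.21 ± 0.11 in the duodenum and 0.00 ± 0.10 in the spleen (adjusted p = 0.16 and 0.986). Part of the exons of Foxp3 overlaps other genes, 18.6% with Flicr on the same strand and 12.9% with Ccdc22 on the opposite strand. Reads of Flicr there would not be told apart from those of Foxp3 by strand either. Those of Ccdc22 cannot be told apart because the kit does not mark strand.

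The second comparison tested the difference itself, the log2 change in the duodenum minus that in the spleen, in 1 fit of all 12 libraries. The difference was above 0 and called in 20 of the 35 genes, called below 0 in none, and its median was 0.65, beside -0.01 over all genes. Of all 16655 genes tested 10.9% were called above 0 and 9.13% below, against 57.1% and 0% of the T cell genes. At an unadjusted p under 0.05, 24 T cell genes were above 0 and 0 below (17% and 16.5% of all genes). By sign 33 were above 0 and 2 below, against 48.8% and 51.2% of all genes. DESeq2 called 20 above 0 and 0 below (11.5% and 11.6% of all genes), and limma-voom 12 and 0 (9.95% and 8.28%). Without duodenum AC H6 replicate 2 the edgeR count was 13.

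The largest called differences were those of Ubash3a at 1.73 ± 0.33, Ms4a4b at 1.70 ± 0.30 and Cd6 at 1.65 ± 0.22 (adjusted p = 0.0039, 0.00254 and 0.000409). The difference of Cd3e was 0.74 ± 0.09 and had the smallest adjusted p of the 35 genes, 0.00028. S1pr1 differed by 0.82 ± 0.11 (adjusted p = 0.000608), Cd4 by 0.81 ± 0.12 (adjusted p = 0.000686), Lck by 0.70 ± 0.12 (adjusted p = 0.00165) and Thy1 by 0.84 ± 0.14 (adjusted p = 0.00181). In these 8 genes the call held without each of the 12 libraries in turn, as it did in Tcf7 at 0.56 ± 0.11, Gata3 at 1.04 ± 0.24 and Cd247 at 0.51 ± 0.13. The other 9 calls were each lost in at least 1 such fit. Cd3d, at 0.95 ± 0.25, lost its call without duodenum AC H6 replicate 2 (adjusted p = 0.0571), and Tbx21, at 0.84 ± 0.22, without duodenum isotype replicate 3 (adjusted p = 0.0502). Zap70, Cd5, Cd27, Cd2, Cd3g, Cd8b1 and Cd8a lost it in 5 to 10 of the 12 fits, with adjusted p of up to 0.167.

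The genes whose difference was not called include the co-inhibitor Ctla4 at -0.06 ± 0.29, Il2ra at -0.03 ± 0.29, Bcl11b at 0.08 ± 0.14 and Foxp3 at 0.19 ± 0.14. These had the 4 differences closest to 0 of the 35. By role the difference was called in 4 of 4 receptor chains, 3 of 3 co-receptors, 3 of 7 proximal signalling genes, 6 of 11 surface molecules, 1 of 4 cytokine and exit receptors and 3 of 6 transcription factors.

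The third comparison set the duodenum against the spleen under isotype, to show the scaled level of each transcript in the 2 tissues. All 35 genes were lower in the duodenum (adjusted p of 5.58e-05 or less), as were 43.8% of all 16029 genes tested, of which 42.2% were higher. TMM scaling assumes that most genes do not differ. By these calls most did, so ratios and levels across tissues depend on the scaling. The median log2 ratio was -4.40. It was closest to 0 for Bcl11b at -0.81 ± 0.09 and Foxp3 at -1.87 ± 0.11, and lowest for Cd2 at -7.61 ± 0.10, Ms4a4b at -7.58 ± 0.12 and Lef1 at -7.04 ± 0.16. Chains of 1 complex had unlike ratios: Cd8b1 had a log2 ratio of -6.91 ± 0.17 and Cd8a of -2.66 ± 0.07, and Cd3d of -4.64 ± 0.22 against -2.72 ± 0.11 for Cd3g, gaps that were not themselves tested.

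Per length of exons, as RPKM (CPM divided by the exon length in kilobases), the median of the 35 genes was 0.503 in the duodenum with AC H6 and 0.295 with isotype, and 8.06 in the spleen with AC H6 and 9.7 with isotype. These medians are the values of different single genes, in this order Cd8b1, Tbx21, Cd3e and Zap70. Their gaps therefore do not measure a change with AC H6. In the duodenum Cd8a stood highest, at 4.10 ± 0.371 RPKM with AC H6 and 3.83 ± 0.114 RPKM with isotype (SD, n = 3). Next under isotype came Bcl11b at 2.94 ± 0.261, then Il2rb at 2.43 ± 0.18, Tcf7 at 2.42 ± 0.217 and S1pr1 at 2.39 ± 0.266 RPKM, of which the last 3 lie within each other's SD. Ubash3a was lowest in the duodenum, at 0.0342 ± 0.0037 RPKM with AC H6 and 0.0111 ± 0.0023 RPKM with isotype. In the spleen under isotype Tcf7 at 56.3 ± 3.0 and S1pr1 at 52.9 ± 1.06 RPKM stood highest, and Trat1 at 1.04 ± 0.279 RPKM lowest. With AC H6 the order of the 2 highest in the spleen was S1pr1 at 43.8 ± 1.7 and Tcf7 at 40.9 ± 2.12 RPKM.

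**Figure D3:**
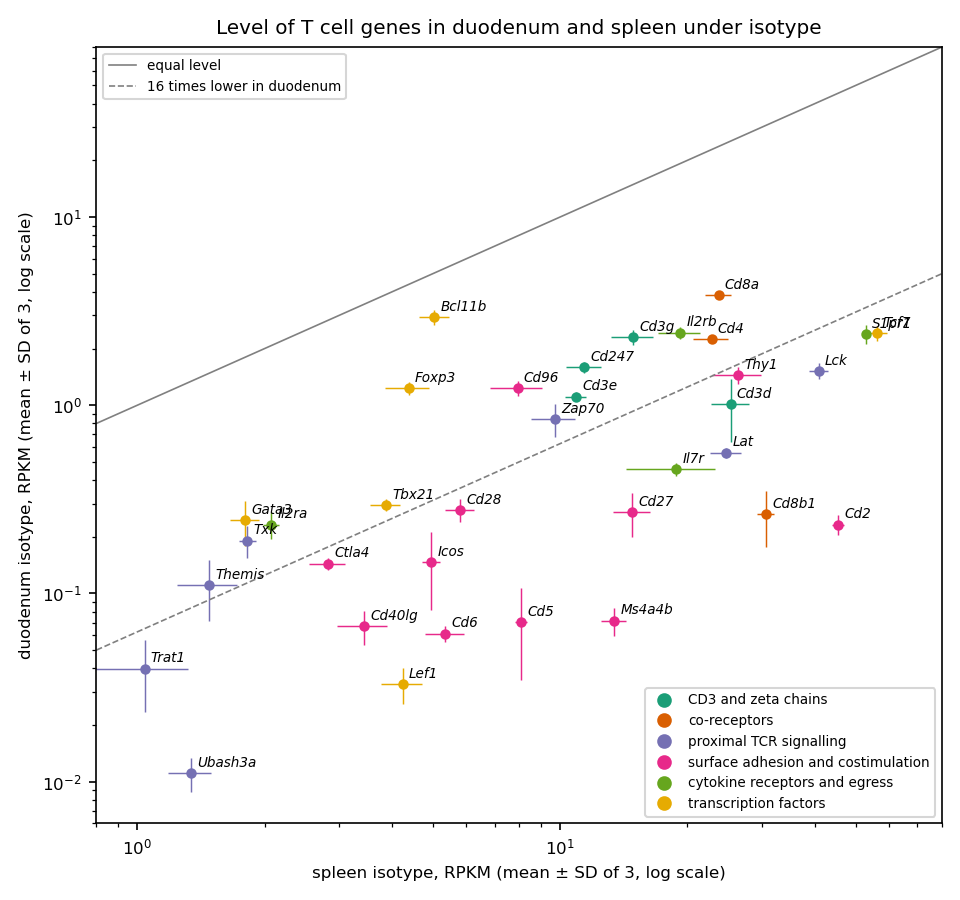
Mean RPKM of each T cell gene in isotype duodenum (y axis) against isotype spleen (x axis), both log scales, with SD over 3 libraries and colours by role (the solid line marks equal levels, the dashed line levels 16 times lower in the duodenum). All 35 genes lie below the solid line, with Bcl11b nearest to it.

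Ratios of 2 members within a library, taken from their RPKM and so scaled by exon length, were looked at after values had been seen. They are not ratios of the CPM given above. With 3 against 3 libraries the smallest p of the exact permutation test (two-sided) is 0.1. Cd4 over Cd8a was 0.68, 0.907 and 0.728 in AC H6 duodenum, against 0.586, 0.604 and 0.568 in isotype duodenum. The groups did not overlap (log2 difference 0.39, exact permutation p = 0.1, 0.2 after adjustment over 8 ratios). Foxp3 over Cd4 was 0.484, 0.439 and 0.419 in AC H6 duodenum, against 0.566, 0.578 and 0.498 in isotype duodenum. In the spleen Foxp3 over Cd4 was 0.243, 0.243 and 0.236 with AC H6, against 0.182, 0.209 and 0.185 with isotype. This ratio was thus lower with AC H6 in the duodenum and higher with AC H6 in the spleen, without overlap (exact permutation p = 0.1 each, 0.2 adjusted). Tbx21 over Gata3 was 2.89, 2.93 and 3.12 in AC H6 spleen, against 2.23, 2.38 and 1.87 in isotype spleen, again without overlap (log2 difference 0.47, exact permutation p = 0.1, 0.2 adjusted). In the duodenum Tbx21 over Gata3 overlapped, at 1.47 ± 0.296 with AC H6 and 1.26 ± 0.255 with isotype (SD, n = 3 libraries, exact permutation p = 0.4). Cd8b1 over Cd8a averaged 0.127 ± 0.0685 in AC H6 duodenum and 0.0687 ± 0.0214 in isotype duodenum, against 1.21 ± 0.114 in AC H6 spleen and 1.30 ± 0.0535 in isotype spleen (SD, n = 3 libraries).

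Other genes of the receptor pathway were a list of 32 that leaves out the 35, most of them shared with other white blood cells. For this list and the further lists below, the shares of all genes were 18.5% higher and 16.1% lower in the duodenum. In the spleen these shares were 2.06% and 1.92%. By edgeR's unadjusted p under 0.05 they were 23.7% and 21.7% in the duodenum, and 14.6% and 13.3% in the spleen. Of the 32, 17 rose, 3 fell and 10 were not called of 30 tested in the duodenum, with a median of 0.28. The smallest p belonged to Coro1a, an actin regulator of leukocytes, at 59.2 ± 2.7 CPM under AC H6 and 33.6 ± 0.684 CPM under isotype (SD, n = 3, log2 change 0.84 ± 0.05). Lcp2, the adaptor SLP-76, changed by 0.88 ± 0.07, Bcl10, which links receptors to NF-kB, by 0.41 ± 0.04 and Was, the actin regulator lost in Wiskott-Aldrich syndrome, by 0.85 ± 0.11. In the spleen 0 rose, 3 fell and 29 were not called of 32, with a median of -0.15. The 3 were Grap2 at -0.31 ± 0.06, Rasgrp1 at -0.38 ± 0.08 and Skap1 at -0.40 ± 0.08, adaptors and an exchange factor used by T cells (adjusted p = 0.0382, 0.044 and 0.0486). Rasgrp1 was the one of these called in both tissues, and it rose by 0.76 ± 0.13 in the duodenum. At an unadjusted p under 0.05, 2 of the 32 were higher and 11 lower in the spleen by edgeR. Ptprc, the CD45 phosphatase of all white blood cells, named after its value was seen, was at 59.6 ± 5.83 CPM under AC H6 and 39.8 ± 3.43 CPM under isotype in the duodenum (log2 change 0.61 ± 0.09), and its change in the spleen was -0.12 ± 0.08.

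Genes of naive and recirculating T cells, a list of 14, gave 4 higher, 1 lower and 8 not called of 13 in the duodenum, and 0 higher, 5 lower and 9 not called of 14 in the spleen (0 higher and 8 lower at an unadjusted p under 0.05). Treml2 rose by 2.14 ± 0.24 in the duodenum and Actn1 by 0.46 ± 0.07, while the sodium pump subunit Atp1b1 fell (-0.33 ± 0.05). Treml2 had 7 to 10 counts in each isotype duodenum library and 48 to 52 in each AC H6 duodenum library. Actn1 was at 144 ± 2.37 CPM under AC H6 and 106 ± 8.82 CPM under isotype there. Which cells made these transcripts was not tested. Atp1b1, at 2080 ± 65.6 CPM under AC H6 and 2650 ± 130 CPM under isotype, is a gene of epithelium too. The genes that fell in the spleen included Rapgef4 (-0.65 ± 0.10), the chromatin organiser Satb1 (-0.41 ± 0.07), Dapl1 (-0.44 ± 0.09) and Ccr7, the receptor that brings T cells to T zones (-0.36 ± 0.07). Ccr7, which dendritic cells carry too, rose in the duodenum (0.72 ± 0.23).

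Activation genes, a list of 17, gave 3 higher, 1 lower and 8 not called of 12 in the duodenum, where 18.5% of all genes rose and 16.1% fell. Cxcr3, a chemokine receptor of type 1 T cells, was at 1.08 ± 0.166 CPM under AC H6 and 0.436 ± 0.0236 CPM under isotype there (SD, n = 3, log2 change 1.32 ± 0.23, adjusted p = 0.00361). Cd44 rose by 0.73 ± 0.13 and the inhibitory receptor Lag3 by 0.65 ± 0.14, and Cd69, an early activation marker, fell (-0.66 ± 0.22). In the spleen 0 of 15 were called by edgeR (1 higher and 6 lower at an unadjusted p under 0.05), and Tox, of smallest p, had a log2 change of -0.52 ± 0.13 (adjusted p = 0.0691). Helper and regulatory T cell genes, a list of 19, gave 0 higher, 3 lower and 7 not called of 10 in the duodenum. Among them were Maf at -0.48 ± 0.08 and Lrrc32 at -0.39 ± 0.11, which are made in other cells of the intestine too. None of 14 was called in the spleen by edgeR (1 higher and 2 lower at an unadjusted p under 0.05), where Ccr6 had the smallest p at -0.31 ± 0.11.

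Genes of intraepithelial lymphocytes, a list of 20, gave 4 higher, 0 lower and 15 not called of 19 in the duodenum, a share of higher genes near the 18.5% of all genes. Itga1 rose by 0.46 ± 0.08, Lag3 by 0.65 ± 0.14, Ctsw by 0.69 ± 0.18 and the chemokine Ccl5 by 0.24 ± 0.07. At an unadjusted p under 0.05 edgeR gave 6 higher and 1 lower. In the spleen Gzmb, the protease granzyme B, rose by 0.67 ± 0.10 and the receptor chain Klrd1 fell (-0.58 ± 0.07), with 17 of 19 not called. The 7 rows sought for constant regions of the T cell receptor were not analysed here.

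Markers of other cells moved beside the T cell genes. The 35 T cell genes summed to 144, 151 and 151 CPM in AC H6 duodenum, against 127, 128 and 131 CPM in isotype duodenum. In the spleen they summed to 1450, 1500 and 1370 CPM with AC H6, against 1670, 1740 and 1920 CPM with isotype. The sums did not overlap in either tissue. B cell markers, a list of 12, summed to 27.4 to 28.1 CPM in AC H6 duodenum and 18.9 to 21 CPM in isotype duodenum, with 3 of 11 called higher (18.5% of all genes). In the spleen the B cell markers summed to 3210 to 3700 CPM with AC H6 and 4040 to 4400 CPM with isotype, with 3 of 12 called lower (1.92% of all genes). B cell genes thus lay in the same order as T cell genes in both tissues. Expressed as a percentage of the B cell sum, the T cell sum was 512, 551 and 541 in AC H6 duodenum, against 623, 610 and 693 in isotype duodenum. In the spleen it was 45.2, 40.5 and 40.9 with AC H6, against 38, 43.1 and 45.6 with isotype, so the spleen groups overlapped on this measure. The duodenum groups did not overlap on it, with the AC H6 libraries lower.

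Natural killer cells share several of the 35 genes. Their 10 markers summed to 55.8 to 58.9 CPM in AC H6 duodenum and 51.4 to 55.9 CPM in isotype duodenum, and to 114 to 131 CPM in AC H6 spleen and 123 to 151 CPM in isotype spleen. Gzma, the protease granzyme A, which is also in the intraepithelial list and was singled out after values were seen, made up 52.2 to 55.1 CPM of that sum in AC H6 duodenum and 48.9 to 53.3 CPM in isotype duodenum. The other 9 markers summed to 3.59, 3.88 and 3.87 CPM in AC H6 duodenum, against 2.52, 1.94 and 2.59 CPM in isotype duodenum, without overlap, while the sums of all 10 overlapped. Among the 9, Klra8, Klra4, Klra9 and Eomes had only 0 to 7 counts in each duodenum library. Prf1, perforin, rose by 1.05 ± 0.31 in the duodenum, with 3 of 4 tested not called, and none of 10 was called in the spleen by edgeR (0 higher and 3 lower at an unadjusted p under 0.05). Macrophage and monocyte markers summed to 316 to 335 CPM in AC H6 duodenum and 186 to 191 CPM in isotype duodenum, where 10 of 10 tested rose, and to 1800 to 1960 CPM in AC H6 spleen and 1500 to 1590 CPM in isotype spleen. Dendritic cell markers summed to 62.1 to 66.7 CPM in AC H6 duodenum and 35.5 to 40.6 CPM in isotype duodenum, and to 336 to 378 CPM in AC H6 spleen and 398 to 443 CPM in isotype spleen. Neutrophil markers summed to 1590 to 2270 CPM in AC H6 spleen and 534 to 822 CPM in isotype spleen, with 11 of 12 called higher. Erythroid markers summed to 115000 to 256000 CPM in AC H6 spleen and 49600 to 145000 CPM in isotype spleen, with overlap and a median log2 change of 1.16. Markers of dividing cells summed to 1070 to 2050 CPM in AC H6 spleen and 422 to 1040 CPM in isotype spleen, and to 563 to 688 CPM in AC H6 duodenum and 457 to 463 CPM in isotype duodenum, where 9 of 12 rose. Of the 12 epithelial markers in the duodenum, whose sums were lower with AC H6 without overlap, 4 rose and 5 fell. No defining gene of the B cell, natural killer, dendritic or macrophage lists was at 0 in a group. The part of these cells in the changes of the T cell genes was not tested. With the haemoglobin, Rn45s, Lars2 and amylase 2 rows left out before scaling, 9 T cell genes were again called lower in the spleen.

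**Figure D4:**
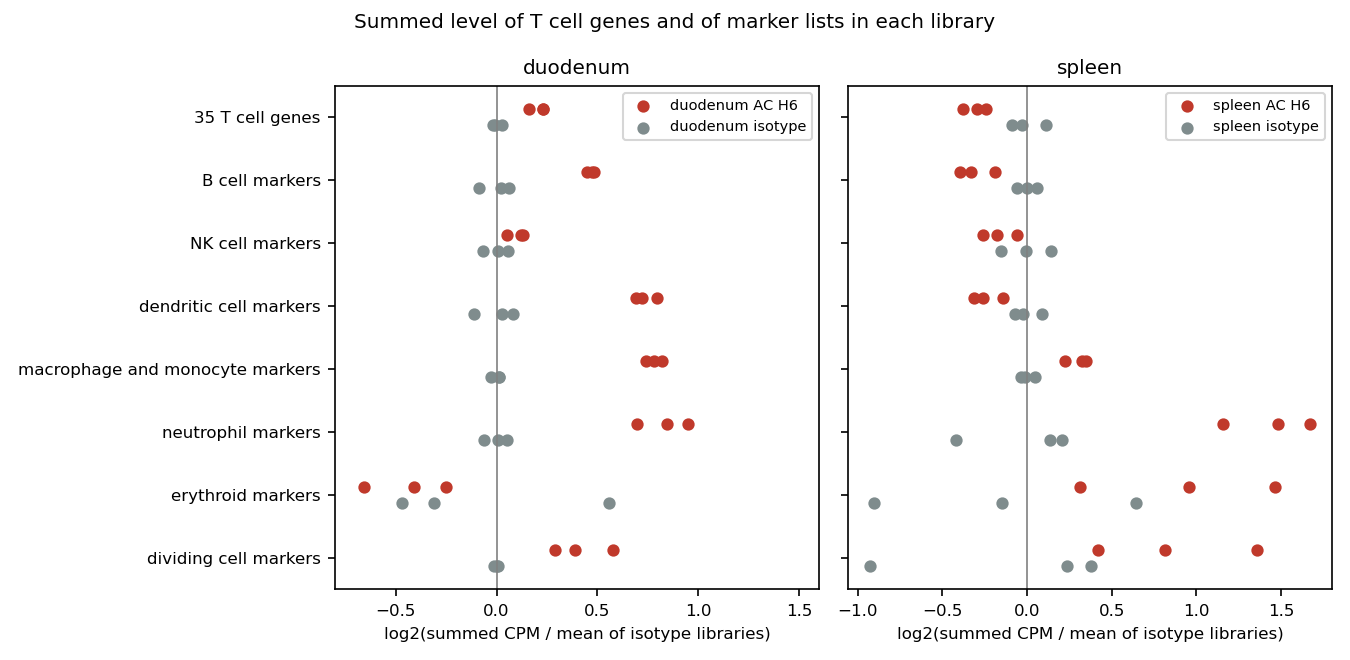
Log2 of the summed CPM of the 35 T cell genes and of 7 marker lists in each library over the mean of the isotype libraries of that tissue (red, AC H6; grey, isotype; 3 libraries each). T cell, B cell and dendritic cell sums lie right of the isotype points in the duodenum and left of them in the spleen.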

How the data were processed

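The 12 libraries were made with the TruSeq RNA kit, which does not mark strand; the kit is named per the labels' protocols, whose text mentions brain although every sample is labelled duodenum or spleen. Tools named in the submitters' processing notes are STAR 2.3, bcl2fastq 2.19, edgeR and Trimmomatic, and the build is mm10. How reads were counted, and against which annotation, is not given in the sources used here. Whole-number read counts per gene are what the authors deposited, which per the file headers keep reads with several matches.

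From these counts, edgeR 4.0.16 in R 4.3.3 gave TMM factors, CPM and quasi-likelihood F-tests after filterByExpr, per tissue on its 6 libraries and for the difference on 12, with Benjamini-Hochberg adjustment over all genes tested. A standard error is the size of the log2 change divided by the square root of F. RPKM divides CPM by the exon length of GENCODE M21 on GRCm38. Alternatives were DESeq2 1.42.0, limma-voom (limma 3.58.1), other size factors and filters, rows left out, a replicate block and each library left out. The fits were tested on simulated data. Members and lists were chosen with earlier results of these data known. Genes called in any comparison, and the one of smallest p in each role, are given in full, and up to 4 called genes by smallest p in each further list. Mzb1, Ly6g, Ahsp and Amy2a1, sought by name, were not analysed here, and some genes of the further lists are not reported here by name.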

Additional observations from a re-analysis of the deposited data

Results flagged for a closer look

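The test of the difference between tissues, that is of tissue and treatment together in edgeR's quasi-likelihood fit of 12 libraries, picked out 20 of the 35 T cell genes, all with a higher log2 change in the duodenum than in the spleen. Of all 16655 genes tested 10.9% were called above 0 and 9.13% below. Of the 20 calls 11 held without each library in turn and 9 were lost in some such fit, and limma-voom called 12. By duodenum minus spleen on the log2 scale, the receptor chains differed by 0.74 (Cd3e), 0.95 (Cd3d), 0.51 (Cd247) and 0.44 (Cd3g). The co-receptors differed by 0.81 (Cd4), 1.26 (Cd8b1) and 0.34 (Cd8a), and the signalling genes by 1.73 (Ubash3a), 0.70 (Lck) and 0.65 (Zap70). Surface molecules differed by 1.70 (Ms4a4b), 1.65 (Cd6), 1.05 (Cd5), 0.97 (Cd27), 0.89 (Cd2) and 0.84 (Thy1). The exit receptor S1pr1 differed by 0.82, and the transcription factors by 1.04 (Gata3), 0.84 (Tbx21) and 0.56 (Tcf7). Groups of 3 libraries are too small for a test of single outlying libraries.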

How the results depend on the processing

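Limits are few libraries and low duodenum counts: with 3 libraries a group the 9 spleen calls were kept without AC H6 replicate 2, and at most 1 of them without any other spleen library, and several duodenum genes rest on 3 to 30 counts a library. In the spleen edgeR called 608 of all genes, against 1356 with DESeq2, 1390 in 1 fit of all 12 libraries, and 14 to 1132 with each library left out. Of the 35 T cell genes 9 were called in the spleen, against 18 with DESeq2 and 0 to 14 with each library left out. For the difference between tissues 20 T cell genes were called, against 12 with limma-voom and 13 to 20 with each library left out. No T cell gene called in the duodenum, in the spleen or for the difference turned its direction in these settings. Single genes of the further lists were not followed in them. The causes were not tested. With the replicate number as a block the spleen counts were 1 of all genes and 0 of the T cell genes (23 lower and 0 higher at an unadjusted p under 0.05), the duodenum counts 5421 and 10, and the difference counts 3230 and 17. The numbers are not known to pair libraries: deviations of same-numbered AC H6 and isotype libraries correlated at -0.16 to 0.34 in the duodenum and -0.04 to 0.17 in the spleen, and 3 of 6 and 2 of 6 libraries correlated best with their own number.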
